A study of Mus musculus with 4 samples.

Results

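The genes described here are 10 members of the Notch signalling pathway: the ligands Dll1, Dll3 and Jag1, the receptors Notch1, Notch2 and Notch3, the target genes Hes1, Hes5 and Hey1, and Lfng, which modifies the receptors. They were taken as a fixed list of symbols from the gene tables of the series, which hold 23444 symbols, and all 10 were found, each on a single row. All 10 passed the filter on low values (a mean of at least 1 FPKM over all libraries) that left 11361 genes for testing. FPKM counts fragments relative to transcript length and to all mapped fragments. The samples are cultured mouse oligodendrocytes, the myelin-forming glia of the central nervous system, grown from primary precursors with the thyroid hormone T3 for 1 day before RNA was taken. The 2 control samples share a genotype label that lists lncOL1+/+ together with lncOL1+/-, so that which of them carries which genotype is not known, and the 2 knockout samples are lncOL1-/-. Every sample is of a mixed strain background, and lncOL1 is a long noncoding RNA gene. The labels do not tell whether the samples are separate animals or cultures, so each test measures the spread between these libraries, which may be technical.

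In Notch signalling a ligand on one cell binds a receptor on its neighbour, the receptor is cut in the membrane, and its intracellular part enters the nucleus and, with the DNA-binding protein RBPJ, switches on genes of the Hes and Hey families. Hes and Hey proteins are repressors, and in oligodendrocyte precursors Notch signalling is best known for holding back differentiation. Lfng adds a sugar to the receptors that favours Delta over Jagged ligands, and Dll3 is a divergent Delta protein that resides largely inside the cell and is known to dampen Notch signalling in the cell that makes it.

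Of the promoters of these genes, 8 of 10 members matched an entry in the RefSeq promoter table (GRCm38.p6), and 3 are shown in part because they hold the letters of the pathway's own DNA motifs or belong to the gene that changed. Hes1 and Hey1 had no entry. Letters in capitals are the RBPJ core TGGGAA, which reads TTCCCA when it lies on the other strand, or the letters CAGCTG, an E-box of the kind that proneural bHLH factors bind, and both strands were searched in the 250 bases before each start site. The Hes5 stretch (chr4:154960673-154960922, plus strand) is a textbook Notch target promoter, the Lfng stretch (chr5:140607091-140607319, plus strand) ends where the first annotated exon starts, and the Dll3 stretch (chr7:28301786-28301815, minus strand) is limited to 30 bases because a longer GENCODE transcript of Dll3 places the whole window in its first exon.
Hes5: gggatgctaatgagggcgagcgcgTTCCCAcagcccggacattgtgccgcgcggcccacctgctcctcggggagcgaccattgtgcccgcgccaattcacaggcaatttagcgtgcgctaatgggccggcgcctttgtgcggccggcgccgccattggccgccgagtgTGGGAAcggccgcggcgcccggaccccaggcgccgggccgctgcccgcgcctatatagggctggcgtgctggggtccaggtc
Lfng: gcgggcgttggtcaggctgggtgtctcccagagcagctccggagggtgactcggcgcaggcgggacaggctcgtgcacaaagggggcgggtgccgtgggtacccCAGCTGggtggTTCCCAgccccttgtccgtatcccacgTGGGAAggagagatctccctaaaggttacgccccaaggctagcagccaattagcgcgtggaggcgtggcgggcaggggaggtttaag
Dll3: aaatataagactccggcatccagCAGCTGc

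The RBPJ core was present in 2 of the 9 windows of the members, Hes5 and Lfng, on each strand in both, and in 21.6% of 32851 promoter windows of the same length. CAGCTG was present in 4 of the 9 windows, those of Dll3, Jag1, Lfng and the upstream start of Dll1, and in 13% of all windows. In Dll3 it begins 7 bases before the start site. In Lfng the plus-strand RBPJ core overlaps a CACGTG, a form of the CACGNG site that Hes and Hey proteins can bind. CACGNG was present in 6 of the 9 windows, among them both windows of Dll1, and in 23.5% of all. The N box CACNAG, another Hes site, was present in 4 of the 9 windows and in 36.7% of all. The GC content of the 9 windows was 52% to 72%, with 8 of them above the median of 52.4% over all windows. The shares over all windows were not matched for GC content. These matches describe letters and are not evidence of binding.

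The libraries were alike in the number of detected genes, with 11284 to 11357 genes at 1 FPKM or more. The files give no read counts, and the steps between low values put the depth of the other libraries at 0.944 to 1.19 times that of control replicate 1. lncOL1 (9630013A20Rik) was at 28.9 and 34.0 FPKM in control and 5.54 and 5.06 in the libraries labelled knockout, so it followed the labels. Defining markers of oligodendrocytes were abundant, with a summed FPKM of the 12 listed genes of 10686 and 10800 in control, against 8934 and 9045 in knockout. Most of that difference is Mbp, the only 1 of the 12 called, at 2683 and 2655 FPKM in control, against 1501 and 1520 in knockout. Mog, Sox10, Olig2, Gpr17 and Bcas1, none of them called, had higher means in knockout. Astrocyte markers were present as well, with 9 of 10 tested, none called, and sums of 587.0 and 556.1 in control, against 549.8 and 530.0 in knockout. The RNA is thus from a culture that also holds astrocyte-type transcripts, and in such bulk RNA a change in the number of cells of a type cannot be told apart from a change in RNA per cell.

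Among the ligands, Dll3 rose in the knockout and Dll1 and Jag1 did not pass the test. Dll3 (chromosome 7, 28293555 to 28301785, minus strand, 9 exons) was at 8.28 and 8.87 FPKM in the control libraries and at 19.6 and 26.5 in the knockout libraries. Both knockout libraries were above both controls, and they differed more from each other than the controls did. The ratio of group means was 2.69, and the difference in log2(FPKM + 1), the scale of all fold changes here, was 1.31 (SE 0.136, 95% interval 0.99 to 1.64, limma adjusted p = 0.0105). That scale understates changes of genes with low values. Dll3 was 31st of 11361 tested genes by log2 fold change and 42nd by p. Without control replicate 1, control replicate 2 or knockout replicate 2 its adjusted p (limma) was 0.112, 0.0888 and 0.0700, and with no filter on low values it was 0.0855 among 17397 genes. Its log2 fold change was 1.10 to 1.52 over all 13 alternatives, 9 of which kept the call.

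Dll1, the classical Delta ligand (chromosome 17, 15367354 to 15375823), was at 10.4 and 9.85 FPKM in control, against 10.6 and 10.8 in knockout. The groups were next to each other without overlap, and the log2 fold change was 0.08 (95% interval -0.09 to 0.25, limma adjusted p = 0.718). Jag1, the Jagged ligand best known from work on oligodendrocyte precursors (chromosome 2, 137081451 to 137116520), was at 2.45 and 2.64 FPKM in control, against 2.41 and 2.53 in knockout, which overlap. Its log2 fold change was -0.03 (95% interval -0.24 to 0.18, limma adjusted p = 0.934). The intervals of Dll1 and Jag1 lie wholly below that of Dll3, but a difference between genes was not tested.

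**Figure D1:**
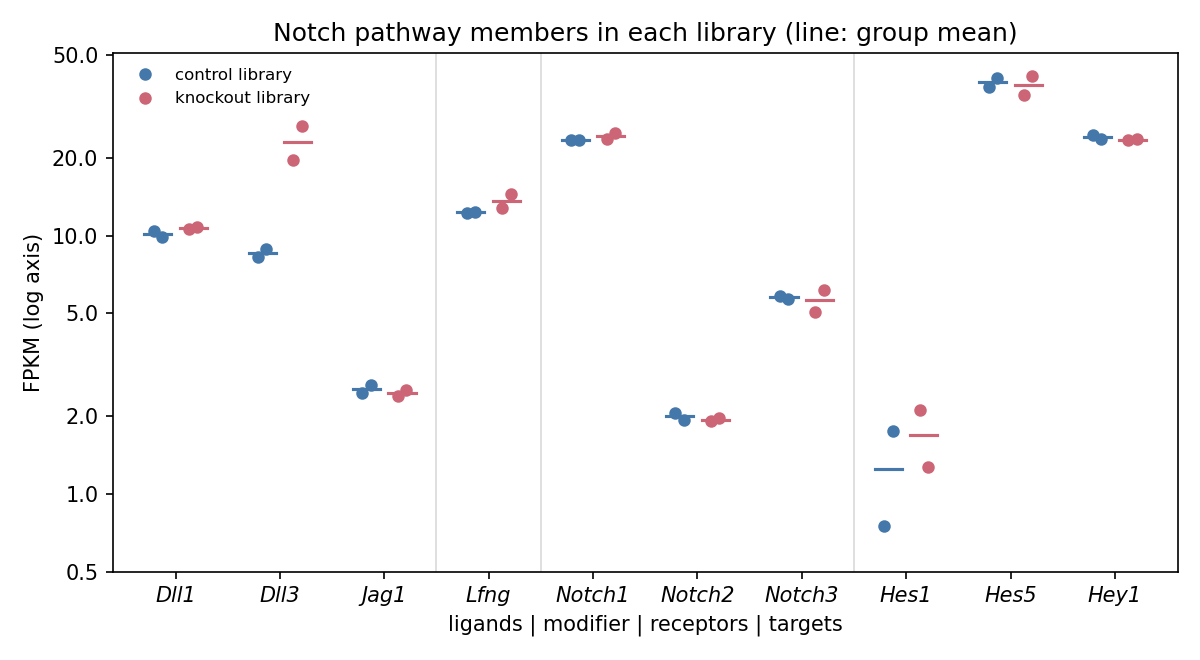
FPKM (log axis) of the 10 members in each of the 4 libraries, as points, with the mean of each group as a line. Dll3 is at 8.28 and 8.87 in control, against 19.6 and 26.5 in knockout, while the groups of most other members lie close together and Hes1 is spread in both.

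The make-up of the ligand RNA shifted with Dll3. Within each library, Dll3 had 0.797 and 0.900 times the FPKM of Dll1 in control, and 1.84 and 2.44 times in knockout, so the more abundant Delta gene was Dll1 in both controls and Dll3 in both knockouts. An exact two-sided permutation test of this ratio gave p = 0.333, the smallest value that 2 libraries against 2 allow. Of the summed FPKM of the 5 canonical ligand genes, Dll3 made up 37.7% and 40.4% in control, against 58.02% and 64.4% in knockout. Dll1 made up 47.3% and 44.8% in control, against 31.5% and 26.3% in knockout, and Jag1 made up 11.2% and 12.0% in control, against 7.14% and 6.15% in knockout. The summed ligand FPKM was 21.9 and 22.0 in control, against 33.7 and 41.2 in knockout. Without Dll3 it was 13.7 and 13.1 in control, against 14.2 and 14.7 in knockout. Most of the difference in the ligand sum was therefore that of Dll3 itself. These ratios, shares and sums are of the sample tables. The authors' deposited table gives Dll3 at 5.08 and Dll1 at 9.49 FPKM in control, against 12.1 and 9.52 in knockout. Dll3 is thus lower relative to Dll1 there in both groups, with Dll1 still above it in control and below it in knockout. The remaining ligand genes were low: Dll4 did not exceed 0.0783 FPKM in any library. Jag2 was below the filter, at 0.790 and 0.558 FPKM in control, against 1.08 and 1.20 in knockout.

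**Figure D2:**
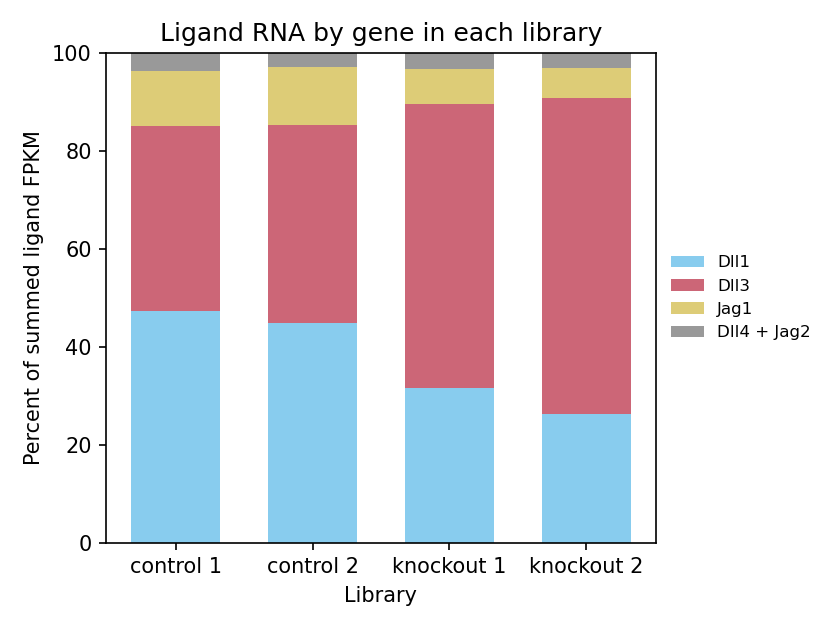
Percent of the summed FPKM of Dll1, Dll3, Dll4, Jag1 and Jag2 held by each gene, as stacked bars, 1 bar for each library. The Dll3 part is 37.7% and 40.4% in the control bars and 58.02% and 64.4% in the knockout bars. All values are of the sample tables.

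Lfng, the fringe glycosyltransferase (chromosome 5, 140607341 to 140615545), was not called. It was at 12.2 and 12.4 FPKM in control, against 12.8 and 14.4 in knockout. Both knockout libraries were above both controls, with a log2 fold change of 0.13 (SE 0.081, 95% interval -0.06 to 0.33, limma adjusted p = 0.547). The interval ends at a 1.25-fold rise on the FPKM + 1 scale. For Lfng the authors' deposited table gives a log2 fold change of 0.01 (q = 0.996). The other fringe genes were not called either, and libraries of the knockout wholly above those of the control are found for 22.6% of all genes. Rfng was at 16.5 and 16.9 FPKM in control, against 19.1 and 20.2 in knockout (log2 fold change 0.23, limma adjusted p = 0.220), while the authors' deposited table gives it a log2 fold change of 0.08 (q = 0.895). Mfng, which falls outside the naming rule and was picked after its values were seen, was at 1.59 and 1.19 in control, against 1.89 and 2.11 in knockout (log2 fold change 0.33, limma adjusted p = 0.283). Rfng was the most abundant fringe gene in every library, with 54.4% to 56.6% of their summed FPKM, and Lfng had 37.8% to 40.6%.

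The receptors were at close levels in both groups, and none was called. Notch1 (chromosome 2, 26457902 to 26503822) was at 23.40 and 23.44 FPKM in control, against 23.7 and 25.0 in knockout, with a log2 fold change of 0.05 (95% interval -0.11 to 0.22, limma adjusted p = 0.824). The knockout libraries were both above the controls, by little. Notch2 (chromosome 3, 98013538 to 98150367) was at 2.05 and 1.94 FPKM in control, against 1.92 and 1.96 in knockout. Its groups overlap, and its log2 fold change was -0.03 (95% interval -0.25 to 0.19, limma adjusted p = 0.947). Notch3 (chromosome 17, 32120893 to 32166852), known chiefly from the mural cells of blood vessels, was at 5.86 and 5.67 FPKM in control, against 5.08 and 6.18 in knockout. The 2 knockout libraries lie on either side of the controls, and the log2 fold change was -0.03 (95% interval -0.27 to 0.20, limma adjusted p = 0.936).

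Notch1 held 74.5% to 77.1% of the summed receptor FPKM in every library, Notch3 16.5% to 18.7% and Notch2 5.90% to 6.53%. Notch4, the endothelial receptor, did not exceed 0.108 FPKM. The summed receptor FPKM was 31.4 and 31.2 in control, against 30.8 and 33.2 in knockout, with overlapping groups. Relative to Notch1, Dll3 was at 0.354 and 0.378 in control and at 0.824 and 1.061 in knockout, all ratios of FPKM within 1 library (exact two-sided permutation p = 0.333, the smallest possible). These ratios too depend on the table. The authors' deposited table gives Dll3 at 5.08 and Notch1 at 20.8 FPKM in control, against 12.1 and 20.2 in knockout.

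The Hes and Hey targets did not pass the test either. Their RNA was measured in a mixed culture, and the activity of the pathway itself was not measured. Hes5, the best known Notch target in neural precursors (chromosome 4, 154960923 to 154962371, the promoter printed above), was the most abundant member at 37.8 and 40.8 FPKM in control, against 35.0 and 41.6 in knockout. The knockout libraries lie on either side of the controls, and the log2 fold change was -0.04 (SE 0.098, 95% interval -0.27 to 0.20, limma adjusted p = 0.924). Hey1 (chromosome 3, 8663359 to 8667038) was at 24.6 and 23.7 FPKM in control, against 23.4 and 23.6 in knockout. Its knockout libraries were both lower, by little, with a log2 fold change of -0.04 (95% interval -0.20 to 0.12, limma adjusted p = 0.886). Hes1 (chromosome 16, 30065357 to 30067796), the other main Hes target, was close to the filter, at 0.753 and 1.75 FPKM in control, against 2.11 and 1.28 in knockout. Its libraries differ by more within each group than the group means do, and its interval was the widest of the members, from -0.29 to 0.85 around a log2 fold change of 0.28 (limma adjusted p = 0.702). A change of Hes1 of up to 1.80-fold upwards on the FPKM + 1 scale thus lies within its interval, while for Hes5 and Hey1 the intervals end at 1.15-fold and 1.09-fold. The summed FPKM of the 3 targets was 63.1 and 66.3 in control, against 60.5 and 66.5 in knockout.

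**Figure D3:**
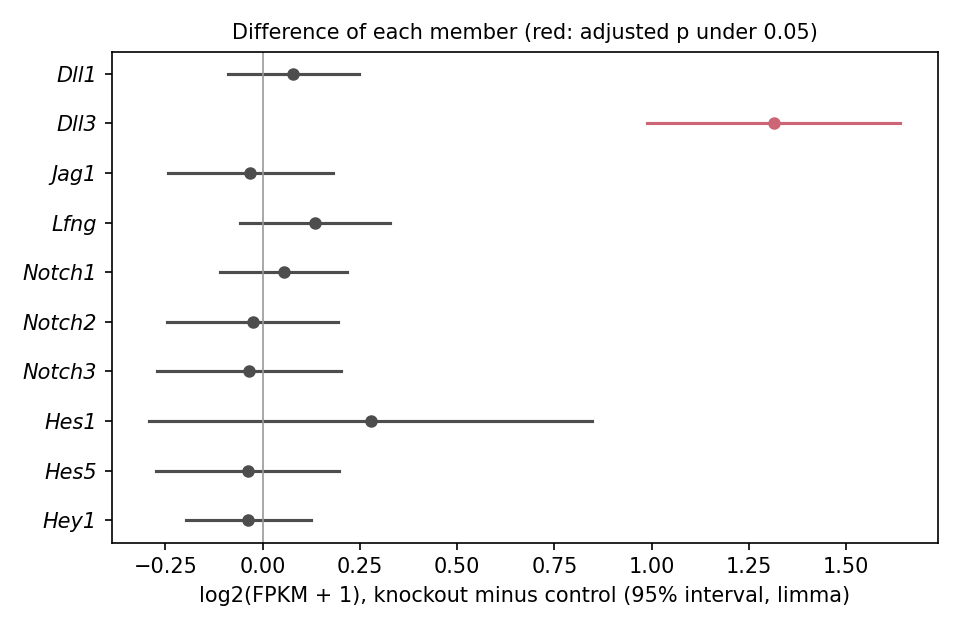
Difference in log2(FPKM + 1), knockout minus control, of each member (point) with its 95% interval from limma (line). Dll3 is at 1.31 with an interval of 0.99 to 1.64, the intervals of the other 9 members all include 0, and that of Hes1 is the widest.

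Ordered by control FPKM, the members ran Hes5, Hey1, Notch1, Lfng, Dll1, Dll3, Notch3, Jag1, Notch2 and Hes1, and in control no neighbours in that order overlapped in their 2 libraries, although Hey1 and Notch1 differed by little (means of 24.1 and 23.4 FPKM). In knockout the order was Hes5, Notch1, Hey1, Dll3, Lfng, Dll1, Notch3, Jag1, Notch2 and Hes1. Dll3 moved from the sixth place to the fourth, where its libraries overlap those of Hey1, and the libraries of Notch2 and Hes1 overlap too. Hey1 and Notch1 exchanged places although neither passed its test. The authors' deposited table has no such exchange, with Notch1 above Hey1 in control (20.8 and 20.6 FPKM) and in knockout (20.2 and 18.9).

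Over the whole list, 1 of 10 members was called higher and 0 lower by limma, against 1.31% of all genes tested called in either direction, 0.528% called higher and 0.783% called lower. At an unadjusted p under 0.05 it was also 1 of 10 (Dll3), against 13.7% of all genes. For 5 of 10 members the libraries of the groups did not overlap, against 43.4% of all genes, and for 4 of 10 the knockout was the higher group, against 22.6% of all genes. These counts include pairs of groups that differ by little, such as Dll1 and Notch1. The median log2 fold change of the members was 0.01, and of the 9 without Dll3 it was -0.03, beside 0.005 over all genes tested. Whether the change of Dll3 differs from those of the other members was not tested across genes. The members were chosen with earlier results of these data known, so their counts are not an independent comparison with all genes.

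The authors' deposited table of their Cuffdiff comparison, with 1 pooled FPKM for each group, called Dll3 higher and none of the other 9 members, against 5.78% of its 12519 tested genes called in either direction and 1.74% called higher. It gives Dll3 at 5.08 FPKM in control and 12.1 in knockout, a log2 fold change of 1.25 with a q listed as 0. The authors' deposited table gives log2 fold changes of 0.01 for Dll1, -0.04 for Notch1 (q = 0.947) and -0.18 for Notch3 (q = 0.432). It gives -0.15 for Hes5 (q = 0.682) and 0.43 for Hes1 (q = 0.808). Its levels differ from those of the sample tables. The Dll3 value in the authors' deposited table is 0.593 of the control mean of the sample tables and 0.524 of the knockout mean, below the 5th percentile of that ratio over 11121 genes (0.807 and 0.757). The same ratios of the authors' deposited table to the sample tables were 0.681 and 0.629 for Hes5, and all 10 members were below the median ratio over genes of 1.03 in control and 0.999 in knockout. The level of Dll3 in FPKM is therefore that of the table it is read from, and groups were compared only within a table.

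An exon of Notch2 overlaps an exon of Gm42820 on the same strand in GENCODE, and those reads could not be separated by strand. No other gene overlaps Dll3, Jag1, Hes1, Hey1 or Lfng. Exons of Dll1, Notch1, Notch3 and Hes5 overlap exons of a noncoding gene on the opposite strand, A930024N18Rik, 0610009E02Rik and Gm13568, Gm17276 and Gm20421 in turn. Whether reads were counted by strand is not stated in these sources, and without strand the reads of such pairs cannot be told apart.

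The rest of the pathway was described with 67 further genes from lists by role, of which 46 passed the filter. None of the 46 was called by limma, against 1.31% of all genes tested. At that share, 0 calls in lists of this size are not unusual. At an unadjusted p under 0.05, 3 were higher and 3 lower, 13% against 13.7% of all genes, and the authors' deposited table calls 2 of the 50 that it tested, Tle4 higher and Numbl lower, against 5.78% of all its genes. The median log2 fold change was -0.01, and the values ran from -0.24 to 0.39.

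Of the other ligands and ligand-like genes, 3 of 8 were tested and 0 called. Cntn1, contactin 1, a membrane protein described as a Notch ligand at axon contacts, was at 50.1 and 53.7 FPKM in control, against 49.7 and 46.7 in knockout (log2 fold change -0.11). Dner, a Delta-like transmembrane protein, was at 27.6 and 28.9 in control, against 26.9 and 28.7 in knockout (log2 fold change -0.02). Both were more abundant in FPKM than Dll3 in every library. Among the 4 genes for sugars on the receptor, besides the fringe genes above, Poglut1, which adds glucose to the receptors, had a log2 fold change of 0.07. All 4 had a positive log2 fold change, as had 5841 of all 11361 genes tested, and 0 of the 4 were called. For Pofut1, the remaining gene of the 4, the log2 fold change was 0.02, and the authors' deposited table gives -0.06.

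Receptor cleavage genes were not called, 0 of 9 tested. Psenen and Aph1a, subunits of gamma-secretase, the protease that releases the intracellular part of the receptor, had the highest levels of the list, with means of 100.6 and 38.0 FPKM in control, against 101.2 and 34.3 in knockout. Psen2, a presenilin of the same protease, had the smallest p of the list, with 7.90 and 7.85 FPKM in control, against 6.29 and 7.08 in knockout (log2 fold change -0.21, limma adjusted p = 0.320). Among 11 tested genes of ubiquitination and turnover 0 were called. Mib1, the ubiquitin ligase that activates ligands, and Dtx3, of the deltex family, had log2 fold changes of 0.01 and 0.06. Numbl, an inhibitor of Notch related to Numb, was at 15.3 and 16.3 FPKM in control, against 12.4 and 14.0 in knockout (log2 fold change -0.24, limma adjusted p = 0.262), while the authors' deposited table gives it q = 0.00810.

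Of 12 tested genes of the nuclear complex and its corepressors 0 were called, and Tle4 came nearest. Tle4, a Groucho-family corepressor that Hes proteins recruit, was at 24.1 and 24.4 FPKM in control, against 32.3 and 32.0 in knockout. Both knockout libraries were above both controls, and the libraries of each group lay close together. The log2 fold change was 0.39 (SE 0.066, 95% interval 0.23 to 0.55, limma adjusted p = 0.0526), and the authors' deposited table gives q = 1.72e-05. Its adjusted p over the alternatives was 0.0270 to 0.294. Snw1, a cofactor of the Notch complex, had a log2 fold change of -0.02. Of the other Hes and Hey genes, Hes6, which antagonises Hes1, and Hey2 were tested, with log2 fold changes of 0.01 and -0.04.

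The proneural list holds the bHLH factors that Hes proteins repress and that switch on Delta genes in neural precursors, with their E protein partners and Insm1, a zinc finger factor of neural precursors. Of 11 listed genes 5 were tested and 0 called. The E proteins Tcf4 and Tcf12 differed by 0.16 and 0.15 on the log2 scale (adjusted p of 0.408 and 0.437 by limma). Neurog1, Neurog2, Neurod1 and Neurod4 did not exceed 0.1 FPKM in any library.

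**Figure D4:**
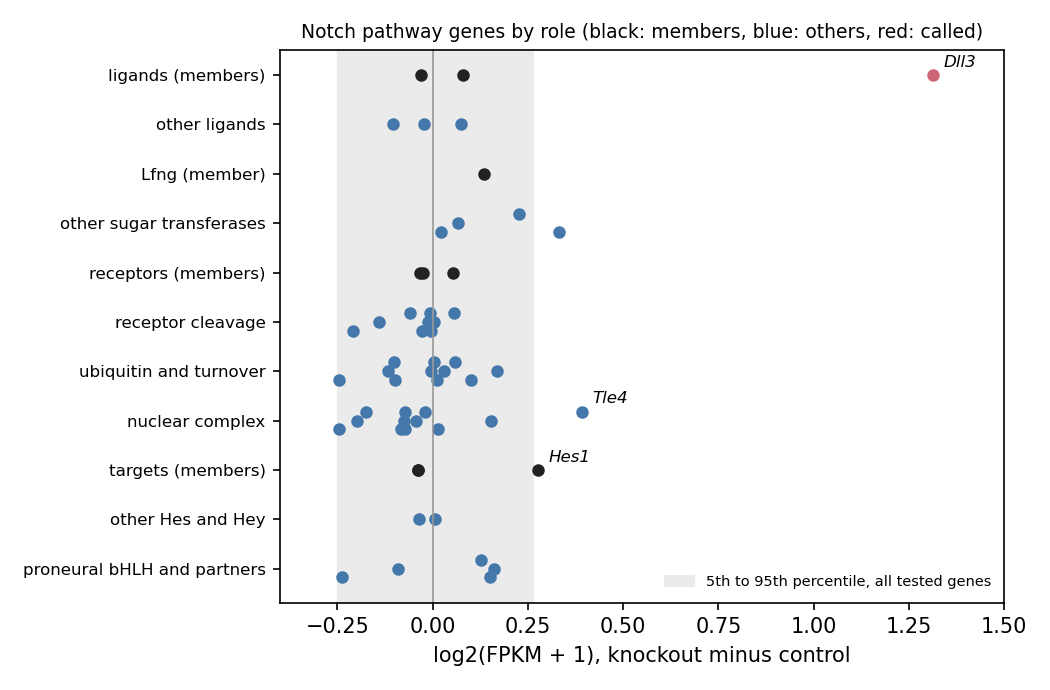
Difference in log2(FPKM + 1), knockout minus control, of the tested Notch pathway genes by role (black for the members, blue for the others, red for a call), with the 5th to 95th percentile of all tested genes (-0.25 to 0.26) in grey. Dll3 lies at 1.31 and the other genes between -0.24 and 0.39, with Tle4 at the upper end of them.

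The genes most like Dll3 over the 4 libraries, by the smallest distance between log2(FPKM + 1) values centred on each gene's mean, were Tuba1c, Laptm5, H19, Fcrls and Slc13a3, at distances of 0.25, 0.32, 0.36, 0.36 and 0.40. They were found by a search over all genes for the same pattern, so no test is given for them. Tuba1c encodes an alpha tubulin and can share reads with near-identical tubulin genes, H19 is an imprinted noncoding RNA, Slc13a3 encodes a dicarboxylate transporter, and Laptm5 and Fcrls are known from microglia. Of all genes tested, 0.528% were called higher and 0.783% lower by limma. Of the 10 microglia markers, 6 were tested and 2 rose by limma (Tyrobp and Laptm5). The summed FPKM of the 10 was 10.2 and 10.6 in control, against 20.8 and 26.2 in knockout. Of the 10 mural cell markers, 3 were tested and 2 rose (Acta2 and Tagln), with sums of 11.9 and 12.9 in control, against 22.2 and 22.4 in knockout. Most of that difference is Tagln, at 7.04 and 7.35 FPKM in control, against 14.61 and 14.57 in knockout. The other tested mural marker, Cspg4, is also listed as a precursor marker and is part of both sums. Pdgfrb, a defining mural receptor gene, was at 0.290 and 0.216 in control, against 0.195 and 0.0849 in knockout, and was below the filter. Kcnj8, a defining pericyte gene, was listed at 0 in every library, and Rgs5, Myh11, Abcc9 and Vtn had means below 0.1 FPKM. The summed endothelial markers did not exceed 1.094 FPKM in any library. Of the 10 precursor markers 0 were called, with sums of 648.5 and 666.9 in control, against 697.3 and 695.9 in knockout, and of the 12 oligodendrocyte markers Mbp, which encodes myelin basic protein, fell. The part of these cell types in the Dll3 result was not tested.

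Around Dll3 on chromosome 7, 0 of 47 other tested genes within 1 Mb were called by limma. Within 5 Mb it was 1 of 140, Tyrobp. Across the windows of 1 Mb around the other 9 members 0 tested genes were called. Of all genes tested 1.31% were called, so few calls are to be expected in windows of this size. Strain differences in the mixed background cannot be told apart from the genotype with these labels.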

How the data were processed

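RNA of 2 control and 2 lncOL1 knockout samples was sequenced from TruSeq RNA libraries, per the labels' protocols. Tools named in the submitters' processing notes are TopHat, Cufflinks, Cuffdiff and CASAVA, with the build mm10 and no versions or roles. The authors deposited 1 table of gene-level FPKM for each sample, per the file headers, and a Cuffdiff table with pooled FPKM, a log2 fold change (treated here as a score, since a ratio with 0 is coded by a stand-in), a test score, p-values and q-values per gene, which is quoted as the authors'.

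Since FPKM are not counts, a count test was not applied. Rows of 1 symbol were summed (258 symbols), 9 symbols with a status other than OK were left out, and a mean of 1 FPKM or more was required, which 11361 genes met. The test was limma 3.58.1 (R 4.3.3; lmFit, eBayes with trend, no covariate) on log2(FPKM + 1), two-sided, with Benjamini-Hochberg adjustment over all genes tested, and an adjusted p under 0.05 is called. The fit has 2 residual and 4.60 prior degrees of freedom, and was tested on simulated data. A 95% interval uses the moderated standard error. Members and lists were chosen with earlier results of these data known. Genes named besides the members are, in each pathway list, the 2 of highest mean FPKM, the 1 of smallest p and any called, and the 5 most like Dll3. Dll4, Jag2, Mfng, Pofut1, Insm1, Neurog1, Neurog2, Neurod1, Neurod4, lncOL1 and the cell type markers are named outside this rule. Some genes that this rule takes are not reported here. The alternatives changed the pseudocount, filter, scaling, trend, handling of repeated symbols, replicate block and libraries used. Motifs were searched in RefSeq promoters of GRCm38.p6, the build of mm10, and overlaps in GENCODE M21. Coordinates are those of the files, 1-based.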

Additional observations from a re-analysis of the deposited data

How the results depend on the processing

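The log2 fold change of Dll3 stayed positive under all 13 alternatives and its call was lost under 4. With no filter it was 1.31 and the call was lost (limma adjusted p = 0.0855), with 0 members called and 4 genes called in all (1 higher, 3 lower). Leaving out 1 library gave a log2 fold change of 1.10 to 1.52 for Dll3, 0 to 1 members called, and 16 to 42 genes called in all, 11 to 16 higher and 5 to 26 lower. Such fits leave a lone sample that is assumed to vary like the other group, and fewer residual degrees of freedom. Of the pathway genes, 1 (Tle4) was called at a pseudocount of 0.1, at a filter of 5, under TPM scaling and with the replicate block. The block took the genes called to 341, 158 higher and 183 lower, left Dll3 as the 1 member called, and changed no other call of a member. The labels do not say that a replicate number pairs samples, and deviations of same-numbered samples correlated at -0.05 across genes. Leaving out 1 library turned the direction of 5 of 10 members, none of them called, and of 7 of 16 other named pathway genes. The log2 fold changes then ran from -0.0685 to 0.0051 for Jag1, -0.0525 to 0.0004 for Notch2, -0.156 to 0.0865 for Notch3, -0.0466 to 0.60 for Hes1 and -0.16 to 0.0834 for Hes5. They ran from -0.0693 to 0.0221 for Dner, -0.11 to 0.12 for Psenen, -0.0047 to 0.12 for Dtx3, -0.0612 to 0.0832 for Mib1, -0.15 to 0.11 for Snw1, -0.0989 to 0.11 for Hes6 and -0.13 to 0.0575 for Hey2. TPM scaling and quantile normalization moved the median of all genes from 0.005 to 0.004 and -0.001. The number of reads behind a value is not known, so the counting error of each member's FPKM is not known either.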
